A study of Rattus norvegicus with 25 samples.

Results

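Of the 764 rat mature miRNAs listed in the count table, 5 are described here: rno-miR-126a-3p, rno-miR-126a-5p, rno-miR-126b, rno-miR-221-3p and rno-miR-222-3p, chosen by name as miRNAs of the endothelium. Of these, rno-miR-126a-3p (13019 counts over all libraries), rno-miR-221-3p (1054) and rno-miR-222-3p (709) had counts, rno-miR-126a-5p and rno-miR-126b had 0, and 1 of the 5, miR-126a-3p, passed the filter on low counts. The libraries are small RNA from mitochondria of the red gastrocnemius, an oxidative part of a hindlimb muscle, of male Wistar-Kyoto rats. 13 rats, aged 5 weeks when training began, had run on a treadmill on 5 days per week for 4 weeks. 12 sedentary rats of the same strain, sex and age had been placed on a treadmill that did not move. RNase A was applied to the mitochondria of all 25 rats, trained and sedentary, so the groups share that step. No whole muscle and no untreated preparation is among them. Each library is named by its group and the number in its title, and all values are counts or CPM, the count relative to the total of its library on the usual scale. Totals ranged from 26793 to 202388 counts (median 72553) in trained and from 12181 to 186006 (median 76240) in sedentary libraries. A count shows that a read was in the preparation, not where in the cell its RNA lay.

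MiR-126 is made from an intron of Egfl7, a gene of endothelial cells, and is largely restricted to endothelium and blood cells. Its 3p arm represses Spred1 and Pik3r2, which restrain signalling from the VEGF receptor, and its 5p arm represses Dlk1 in endothelial cells, so both arms are known to act. MiR-221 and miR-222 come from a single transcript, repress Kit and the cell cycle inhibitor p27, and are also found in smooth muscle and other cells. Endurance training is known to add capillaries to muscle, which is why these miRNAs are compared between trained and sedentary rats.

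The mature sequences of the 3 miRNAs with counts, from RefSeq (build GRCr8), are shown with the seed, bases 2 to 8, in capitals, since the seed sets which targets are recognised.
miR-126a-3p: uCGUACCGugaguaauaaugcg
miR-221-3p: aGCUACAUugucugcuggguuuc
miR-222-3p: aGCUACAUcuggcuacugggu
MiR-221-3p and miR-222-3p have the same seed and the same first 8 bases. Set side by side without gaps they are identical at 11 of 21 positions. RefSeq sequences were matched by name to 687 of the 764 entries, and among these no other entry has the seed of miR-126a-3p, and none but this pair has the seed of miR-221-3p.

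The other 2 members are shown for their relation to each other, with the complementary stretch in capitals.
miR-126a-5p: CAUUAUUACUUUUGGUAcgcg
miR-126b: UACCAAAAGUAAUAAUGugcug
The first 17 bases of miR-126b are the reverse complement of the first 17 bases of miR-126a-5p. In the RefSeq gene table the miR-126a-3p sequence lies inside Egfl7 on the strand of that gene, and miR-126b lies inside it on the opposite strand. MiR-221 and miR-222 lie on the same strand with 0 annotated genes between them.

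The strand matters because complementary entries of this table often held nearly equal counts. MiR-3571 is complementary to miR-1-3p over 21 bases, and the entries held 241335 and 241423 counts. MiR-3596a is complementary to let-7a-5p over 22 bases, and both entries held 12233 counts. In all, 22 pairs of entries were complementary over at least 15 bases with at least 100 counts in the larger one. Of 16 pairs complementary over 19 to 22 bases, 15 had a smaller entry with more than 90% of the larger one's count. Of 6 pairs complementary over 15 to 18 bases, 0 reached 90%, 3 had a smaller entry at 0 and the highest was at 74.3%. The pairs not at 0 were miR-3596a with let-7c-5p (38.1%) and let-7b-5p (48.9%), and miR-3571 with miR-1b. Their entries miR-3596a and miR-3571 have a longer complement, let-7a-5p or miR-1-3p. They resemble miR-126a-5p and miR-126b in length of run only. Whether reads of miR-126a-5p and miR-126b would have been counted together was not tested, since both were at 0. For miR-126a-3p, miR-221-3p and miR-222-3p, no entry with a sequence was complementary over 15 bases or more, the longest runs being 10, 9 and 10 bases. No such complementary entry was thus found for them.

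MiR-126a-3p, the arm that acts on VEGF signalling, was present in all 25 libraries. It held 13019 of 2094773 counts over all libraries, and 88.1% of the 14782 counts of the 5 members. Its level was 6050 ± 3905 CPM (SD, n = 25), the 26th highest mean level among the 260 entries with a count. The neighbours in that order were miR-99b-5p at 6557 ± 3682 CPM and let-7g-5p at 5890 ± 3663 CPM (SD, n = 25), and neither differed from miR-126a-3p by more than the spread between libraries. Within single libraries its place ranged from 17th in sedentary library 16 to 51st in trained library 10, with a median of 27.

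MiR-126a-5p, the other arm of the same hairpin, had 0 counts in all 25 libraries, and so did miR-126b. Over all libraries 0 of 2094773 counts allows a level of up to 1.43 CPM, taking 3 counts as the limit. In single libraries the limit ranged from 14.8 to 246 CPM. Set against the 13019 counts of the 3p arm, 0 counts allows the 5p arm a share of up to 0.0230% of the hairpin's reads. The limit in single libraries ranged from 0.156% in sedentary library 30, with 1920 counts of the 3p arm, to 5.77% in trained library 10, with 52 counts. The share was 0 in both groups and could not be tested. These limits cover counting error only, and how reads with several matches were handled, or whether entries were removed or set to 0 before deposit, is not stated in the labels. The limits hold only if these entries were counted like the others.

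An empty opposite arm was common in this table. Of 282 miRNAs with both arms listed, 63 had an arm with at least 500 counts, and in 38 of these, 60.3%, the other arm had 0 counts. MiR-221-5p and miR-222-5p, the opposite arms of miR-221-3p and miR-222-3p, were also at 0 in all 25 libraries. Among the 19 miRNAs whose leading arm had at least 10000 counts, 12 had an opposite arm at 0, miR-126a among them, and the other 7 had one of up to 6.93%, in miR-99b. The 3p arm led in 30 of the 63 and the 5p arm in 33. Complementary entries with nearly the same counts, such as miR-3557-5p and miR-378a-3p, stand in these numbers as separate miRNAs. The sequence of miR-126a-5p is 38.1% G and C, that of miR-126b 31.8%, and that of miR-126a-3p 45.5%. Among 134 entries under 40% G and C, 26.1% had a count, and among 384 entries at 40% to 55%, 38.3% had one. Whether base composition has a part in the empty entries was not tested.

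**Figure D1:**
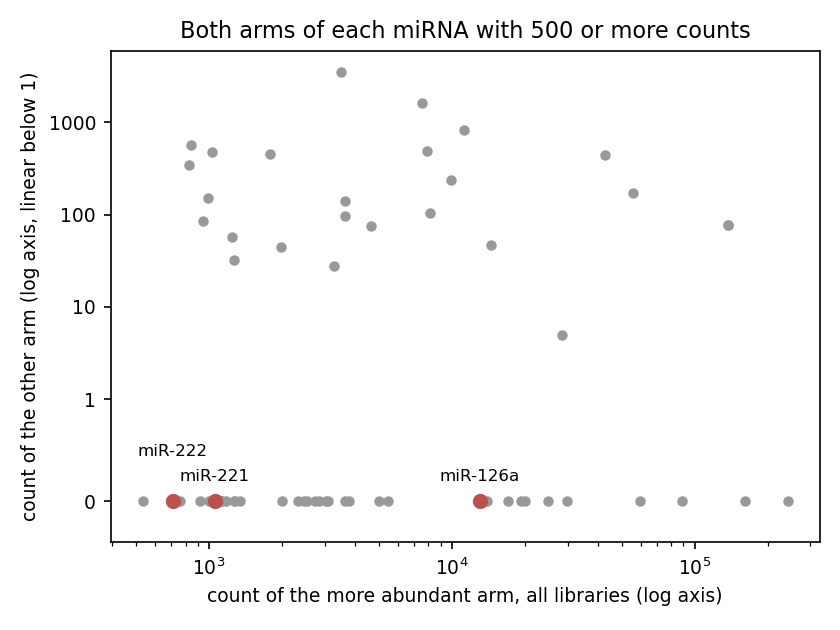
Counts of both arms of each of the 63 miRNAs with at least 500 counts in the more abundant arm, summed over 25 libraries. The horizontal axis is the more abundant arm (log axis) and the vertical axis the other arm (log axis, linear below 1); miR-126a, miR-221 and miR-222, in red, are among the 38 at 0.

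The question of the design is whether training changed these levels. In trained rats miR-126a-3p ranged from 1523 CPM in library 10, through a median of 4901, to 8548 CPM in library 26. In sedentary rats it ranged from 2490 CPM in library 4, through a median of 5375, to 18001 CPM in library 30. The ranges overlapped from 2490 to 8548 CPM. 3 sedentary libraries, numbered 16, 30 and 32, were above every trained library, at 13332, 18001 and 13651 CPM. The other 9 sedentary libraries lay between 2490 and 6168 CPM, inside the trained range.

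The mean was 7045 ± 5075 CPM over sedentary libraries (SD, n = 12) and 5132 ± 2232 CPM over trained libraries (SD, n = 13). The sedentary mean was 6049 CPM without library 30. The 1920 counts of sedentary library 30 gave a 95% exact binomial interval of 17211 to 18817 CPM, and the 52 counts of trained library 10 one of 1138 to 1997 CPM. These intervals cover counting error only, and take each read as a separate molecule. In the fit across all 76 entries that passed the filter, the log2 fold change of miR-126a-3p, trained minus sedentary, was -0.04 (SE 0.39, 95% interval -0.81 to 0.73, edgeR quasi-likelihood test, p = 0.917, adjusted p = 0.999). The interval spans 0.568-fold to 1.66-fold, so changes within that range in either direction are not excluded by these libraries. The fit called 0 of 76 entries, 0%, at an adjusted p under 0.05, and 1 of 76, 1.32%, had an unadjusted p under 0.05. The median log2 fold change of the 76 entries was -0.0081.

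**Figure D2:**
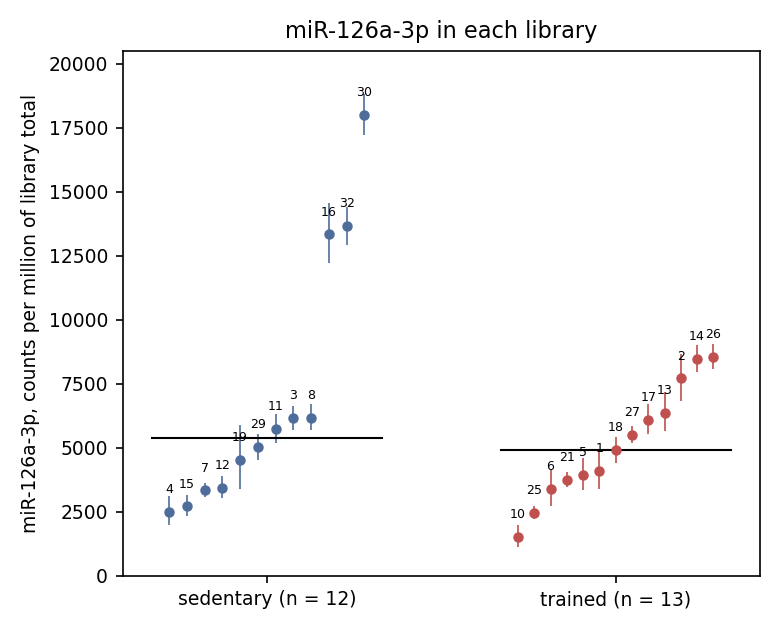
MiR-126a-3p in CPM, 1 point per library with its title number, vertical bars giving 95% exact binomial intervals and black lines the group medians. The bars cover counting error only. The medians are 5375 CPM (sedentary) and 4901 CPM (trained), and sedentary libraries 16, 30 and 32 stand above all others.

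Scaling moved the value more than the choice of test did. With library totals only, it was -0.46 (95% interval -1.28 to 0.35, edgeR adjusted p = 0.930), and the median of the same 76 entries moved to -0.29. With DESeq2 size factors it was -0.17 against a median of -0.16. The reported fit uses TMM factors, which set libraries to a common scale by a trimmed mean of ratios and here ranged from 0.597 to 1.77. On that scale the mean of miR-126a-3p was 6074 ± 3287 CPM over sedentary libraries (SD, n = 12), and 5907 ± 2995 CPM over trained libraries (SD, n = 13). Its medians were then 6230 in trained and 4461 in sedentary rats, the reverse of the order of the means. Sedentary library 30 stayed highest at 13939 on that scale, but libraries 16 and 32, at 7736 and 7953, fell within the trained range, whose highest value was 12063 in library 14. That these 3 libraries exceed all trained ones therefore holds for shares of the library total and not for TMM-scaled levels.

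**Figure D3:**
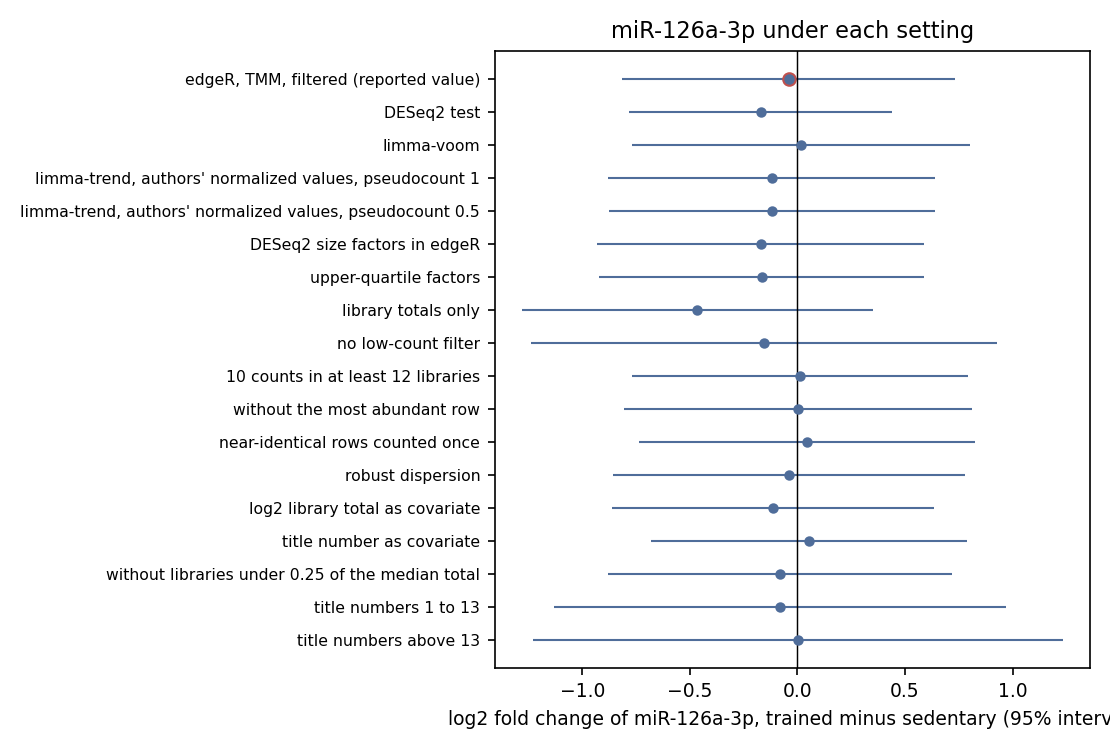
Log2 fold change of miR-126a-3p, trained minus sedentary, with 95% intervals, in the reported fit (red) and 17 other settings. Every interval includes 0, and the values run from -0.46 (library totals only) to 0.053 (title number as covariate).

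In CPM, the SD of miR-126a-3p over all 25 libraries (3905) was close to those of its neighbours miR-99b-5p (3682) and let-7g-5p (3663). The biological coefficient of variation of miR-126a-3p in the fit, the spread left after counting error, was 0.819. That of miR-99b-5p was 0.813 and that of let-7g-5p 0.852. The fit draws this coefficient toward that of entries of like level, so likeness between neighbours in it is partly built in. For miR-126a-3p, 22 of the 76 entries had a lower one (median 1.19), and the higher values were mostly those of less abundant entries. The SD of the log2 level of miR-126a-3p was 0.94 over the 12 sedentary and 0.73 over the 13 trained libraries in CPM. After TMM scaling it was 0.74 and 0.86, so which group was more uneven depended on the scale. Depth differed between ranges of title numbers. Trained totals were 26793 to 43510 counts at numbers 1 to 13 and 72553 to 202388 above 13. Sedentary totals were 30527 to 186006 and 12181 to 106661 in those ranges. A split at 13 therefore also splits the trained libraries by depth. Fitted separately, the log2 fold change was -0.081 at title numbers 1 to 13 (95% interval -1.13 to 0.97) and 0.00078 above 13 (95% interval -1.23 to 1.23), so neither range narrows the difference. In another fit, over all 25 libraries at once, the change of the group difference between the ranges was 0.21 (SE 0.74, 95% interval -1.28 to 1.71, edgeR p = 0.774, adjusted p = 0.887). That fit called 1 of 76 entries, which was not miR-126a-3p.

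Markers of other cells were measured beside this result. The smooth muscle and pericyte list, miR-143 and miR-145 with both arms, had counts for 4 of 4 markers. Nearly all came from miR-143-3p, with 55782 counts against 172 of miR-143-5p, 212 of miR-145-5p and 8 of miR-145-3p. The list therefore stands mainly for 1 miRNA. It summed to 8054 to 34759 CPM (median 24175) in trained and 8311 to 55488 CPM (median 32227) in sedentary libraries. Sedentary libraries 30, 32 and 16, highest for miR-126a-3p, were the second, the third and the fourth of 25 for that sum, at 53450, 52541 and 38792 CPM. Sedentary library 3 was the first, at 55488 CPM, with miR-126a-3p at 6158 CPM. Both measures are CPM of the same library totals, so a library's scaling moves them together. TMM scaling lowered miR-126a-3p in sedentary libraries 3, 16, 30 and 32, to 4648, 7736, 13939 and 7953. The skeletal muscle list had counts for 5 of 6 markers, with miR-208b-3p at 0, and summed to 109901 to 271093 CPM (median 235814) in trained and 91475 to 324808 CPM (median 163680) in sedentary libraries. It was at 155704, 113603 and 128811 CPM in sedentary libraries 16, 30 and 32. The part of these markers in the miR-126a-3p values was not tested.

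Blood cells also hold miR-126. The red cell markers miR-451-5p, miR-144-3p and miR-144-5p were at 0, and the sum of that list, 1 of 4 markers with a count, came from miR-486, which muscle also makes. It ranged from 10117 to 52678 CPM (median 17022) in trained and from 10020 to 47518 CPM (median 31023) in sedentary libraries. Sedentary libraries 16, 30 and 32 were at 37561, 40446 and 14412 CPM. Of the leukocyte and platelet list 2 of 5 markers had a count. The myeloid miRNA miR-223-3p was at 0, as were miR-155-5p and miR-142-3p, and the sum ranged from 0 to 1138 CPM in trained and from 0 to 2381 CPM in sedentary libraries, with a median of 0 in both. In sedentary libraries 16, 30 and 32 it was 0, 225 and 148 CPM. That sum depends on the arms listed, since miR-150-3p, not on the list, had 827 counts in 15 libraries and miR-223-5p 11 in 1. Entries at 0 were common in this table, so markers at 0 do not show that a cell type was absent. In such preparations a smaller amount of endothelial material and less of a miRNA per cell cannot be told apart.

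MiR-221-3p and miR-222-3p were far lower and far less even. MiR-221-3p had 1054 counts over all libraries and miR-222-3p 709, giving mean levels of 511 ± 914 CPM and 349 ± 550 CPM (SD, n = 25), 81st and 90th in the order of levels. Each had a count in 16 of 25 libraries and 0 counts in 9. MiR-221-3p reached 10 counts in 6 libraries, and in the 10 others with a count it had 1 to 7. MiR-222-3p reached 10 counts in 9 libraries and stayed under 10 in 7.

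The highest counts of miR-221-3p were 337 in sedentary library 8, 246 in trained library 21, 199 in sedentary library 3 and 129 in sedentary library 30. The first 3 of these libraries held 74.2% of all its counts. The highest counts of miR-222-3p were 205 in sedentary library 7, 155 in sedentary library 29, 98 in sedentary library 3 and 85 in trained library 27. Its leading 3 libraries, sedentary 7, 29 and 3, held 64.6%. For miR-126a-3p the 3 leading libraries held 33.7%.

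Other entries of similar total were uneven too. 28 entries had totals within 1.5 times that of miR-221-3p and were present in 7 to 23 libraries (median 18), 8 of them in fewer than 16. 2 of the 28 held a larger share of their counts in 3 libraries. Around miR-222-3p, 25 entries were present in 7 to 24 libraries (median 14), 16 of them in fewer than 16, and 11 held a larger share in 3 libraries.

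**Figure D4:**
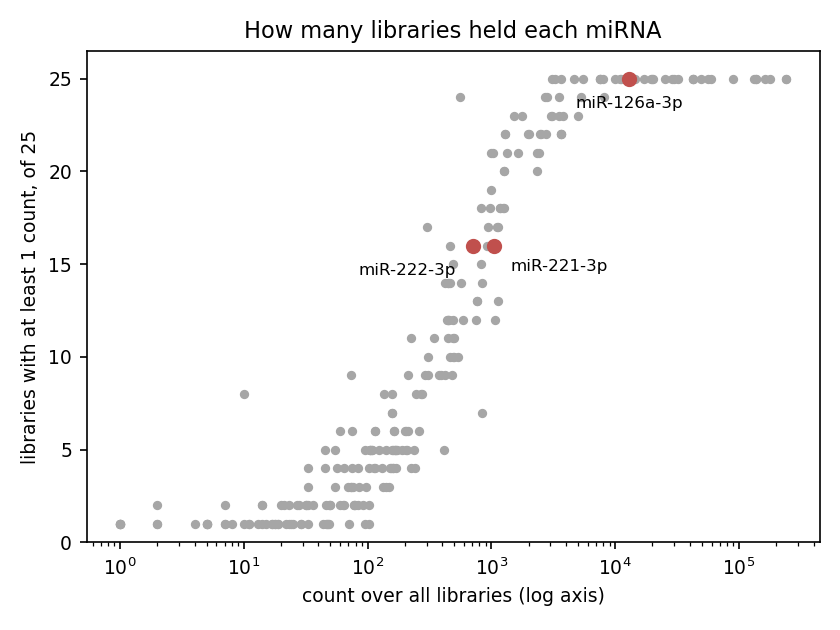
Number of libraries with at least 1 count against the count over all 25 libraries (log axis) for each of the 260 entries with a count. MiR-126a-3p, in red, is in all 25, and miR-221-3p and miR-222-3p, also in red, are in 16 each, within the band of entries of similar total.

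The libraries where each of the 2 miRNAs was high were then compared. MiR-221-3p reached 10 counts in 6 of 25 libraries and miR-222-3p in 9. With so few, little overlap would be found between unrelated entries too, and whether theirs differed from that was not tested. Both reached 10 counts in 3 libraries, trained 2, trained 6 and sedentary 3. MiR-221-3p alone did so in 3 and miR-222-3p alone in 6, and neither in 13. Trained library 21 had 246 counts of miR-221-3p and 0 of miR-222-3p, and sedentary library 8 had 337 and 0. In the opposite direction, sedentary library 7 had 0 counts of miR-221-3p and 205 of miR-222-3p, sedentary library 29 had 0 and 155, and trained library 13 had 0 and 41.

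The share of miR-221-3p in the counts of the pair was taken in the 11 libraries with at least 20 counts of both together. It was above 90% in 3 of them, below 10% in 5 and between in 3. The middle values were 57.9% in trained library 2 (95% exact binomial interval 48.5% to 66.8%), 67.0% in sedentary library 3 (61.3% to 72.3%) and 71.7% in trained library 6 (58.6% to 82.5%). At the extremes, the interval was 98.9% to 100% in sedentary library 8 and 0% to 1.78% in sedentary library 7. The intervals cover counting error only, and the reads were amplified without molecular identifiers, so reads of 1 molecule can be counted many times. Its mean over the 6 sedentary libraries was 44.0% ± 49.6 (SD), and over the 5 trained libraries 46.1% ± 44.3 (SD), a difference of 2.14 percentage points (exact permutation test, two-sided, p = 0.948). The sign of that difference changed when any of 6 of the 11 libraries was left out.

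Across all 25 libraries, log2 CPM (TMM factors over all 764 entries) of miR-221-3p and miR-222-3p had Pearson r = -0.058 (permutation test, p = 0.783, adjusted p = 0.783 over 3 pairs) and Spearman rho = -0.24 (permutation p = 0.248, adjusted p = 0.508). Without the 2 libraries farthest from the median of miR-221-3p, r was 0.13. The Spearman coefficient was 0.069 in trained and -0.47 in sedentary rats, and -0.057 at title numbers 1 to 13 and -0.51 above 13. MiR-126a-3p had r = 0.10 and rho = -0.046 with miR-221-3p (permutation p = 0.630 and p = 0.827, adjusted p = 0.783 and p = 0.827). With miR-222-3p it had r = -0.15 and rho = -0.20 (permutation p = 0.471 and p = 0.339, adjusted p = 0.783 and p = 0.508). Without the 2 libraries farthest from the median of miR-126a-3p these r were -0.060 and -0.18. For miR-126a-3p and miR-221-3p, rho was -0.55 in trained and 0.31 in sedentary rats, and 0.30 at title numbers 1 to 13 and 0.043 above 13. For miR-126a-3p and miR-222-3p it was -0.37 in trained and -0.10 in sedentary rats, and 0.14 and -0.15 in those ranges. None of the 3 pairs passed the threshold, and the many libraries at 0 limit what a correlation can show here. Pairs with miR-126a-5p or miR-126b gave no value, since those entries were at 0.

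**Figure D5:**
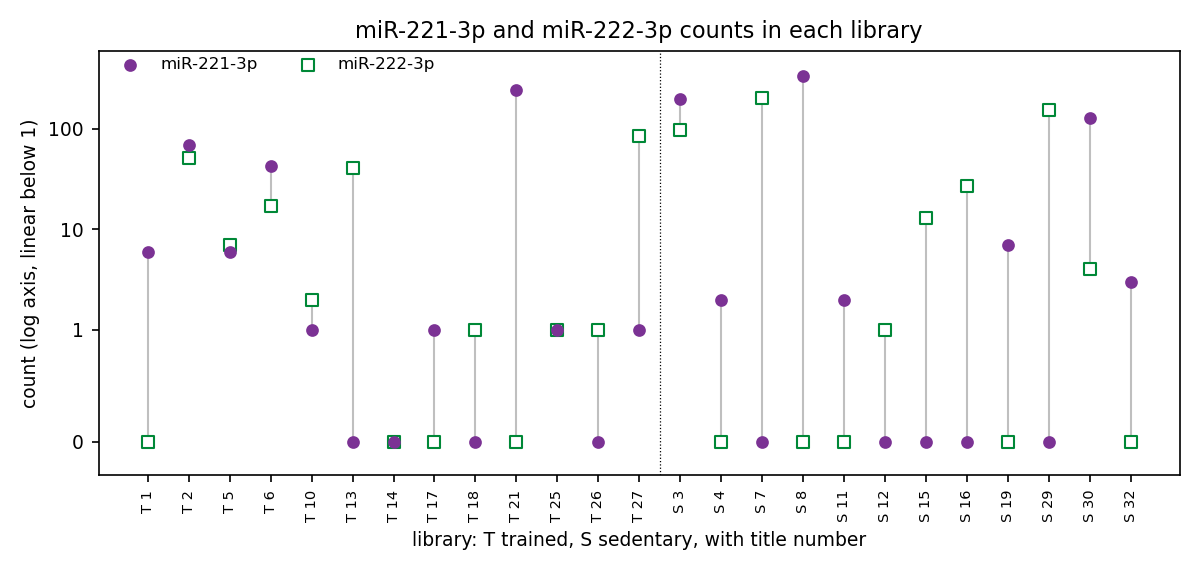
Counts of miR-221-3p (filled circles) and miR-222-3p (open squares) in each of the 25 libraries, joined by a grey line per library (log axis, linear below 1). Both reach 10 counts in trained libraries 2 and 6 and sedentary library 3, while long lines mark libraries that hold 1 of the pair and little or none of the other.

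Between the groups, miR-221-3p was at 0 to 1962 CPM in trained libraries (median 13.8) and at 0 to 3572 CPM in sedentary ones (median 30.2). It had a count in 9 of 13 trained and 7 of 12 sedentary libraries. MiR-222-3p was at 0 to 1429 CPM in trained (median 13.6) and 0 to 2038 CPM in sedentary libraries (median 25.3), with a count in the same numbers of libraries, 9 of 13 and 7 of 12. Both ranges began at 0, so the groups overlapped, and the highest library was sedentary for each miRNA.

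Neither miRNA passed the filter, so the reported fit gives no value for them. Without a filter the log2 fold change was -0.73 for miR-221-3p (95% interval -3.09 to 1.63, edgeR adjusted p = 0.801) and -0.49 for miR-222-3p (95% interval -3.15 to 2.17, edgeR adjusted p = 0.874). That fit called 66 of 260 entries, 25.4%, and 0 of the 3 members in it. DESeq2 gave -0.19 (95% interval -2.91 to 2.53) and -0.59 (95% interval -3.11 to 1.92), both with an adjusted p of 0.989, and called 0 of 235 entries, 0%, with 8 at an unadjusted p under 0.05. The sign rested on single libraries: miR-221-3p was at 0.68 without sedentary library 8, and at -1.44 without trained library 21. MiR-222-3p was at 0.19 without sedentary library 29 and at -0.96 without trained library 2.

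Other miRNAs described in endothelium or vessel growth were set beside the members. Of 28 on that list, 17 had a count and 8 passed the filter. 3 of the 8 had positive and 5 negative log2 fold changes, 0 passed the threshold, and their median was -0.27 against -0.0081 over all 76 entries. MiR-10b-5p, which favours sprouting of vessels, ranged from 644 to 41196 CPM and had a value of -0.78 (SE 0.39, edgeR p = 0.0541, adjusted p = 0.916). MiR-10a-5p, which restrains inflammatory signalling in endothelium, ranged from 1341 to 28126 CPM, at -0.38 (SE 0.39, edgeR adjusted p = 0.953). MiR-378a-3p was the most abundant of the list at 15035 to 109182 CPM, with a value of 0.025 (SE 0.30, edgeR adjusted p = 0.999). Its 136920 counts were close to the 137458 of the complementary entry miR-3557-5p. MiR-17-5p, miR-18a-5p, miR-19a-3p and miR-19b-3p, which are made from 1 angiogenic cluster, had 0 counts. MiR-20a-5p, also of that cluster, had 10 counts in 1 library. MiR-92a-3p, a mature form also assigned to it, had 2324 counts, but a mature count does not show which gene made it.

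The entries most like miR-126a-3p in their pattern over the 25 libraries were miR-24-3p (Spearman rho 0.51), miR-26a-5p (rho 0.48) and miR-128-3p (rho 0.45). The other 72 of the 75 compared were lower, down to -0.69 for miR-30c-2-3p, and the median was -0.096. For miR-143-3p, the leading smooth muscle marker, rho was 0.22. These values describe shared patterns of log2 CPM, TMM-scaled as in the reported fit, in libraries that also share depth and scaling, and only 1 exceeded 0.5.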

How the data were processed

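The labels' protocols describe magnetic bead isolation (a kit made for mouse) from roughly 100 mg of muscle, then 312 µg RNase A (1 h, 37 °C) and proteinase K. For library preparation they give 0.3x adapters and 20 PCR cycles. The authors deposited raw counts per mature miRNA, empty where the count is 0 and read here as 0. The authors also deposited normalized values, a signal equal to the count divided by 1 factor per library (largest relative deviation 1.59e-09). Tools listed in the submitters' processing notes are DESeq2 1.36 and fastp 0.20.0. The sources used here do not give the aligner, counter, strand setting or build, so no coordinates are printed. Totals ranged from 12181 to 202388 per library. Over 144 pairs of libraries within a group, chi-square divided by its degrees of freedom was at least 20.7, so none agreed within sampling noise. Titles number the rats, and the labels give no litter or batch.

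Counts were tested with edgeR 4.0.16 (R 4.3.3; quasi-likelihood, TMM factors, filterByExpr with a minimum count of 10 and total of 15, Benjamini-Hochberg over 76 entries, threshold 0.05), tested on simulated data. Alternatives were DESeq2 1.42.0, limma 3.58.1 (voom, and trend on log2 of the normalized values plus 1 or 0.5), other scalings, filters and covariates, and leaving out each library. Ratios and correlations used two-sided permutation tests in scipy 1.17.1 and numpy 2.4.6, exact where a group had under 10 libraries and otherwise with 100000 resamples. Named miRNAs were the members, their opposite arms, the 3 entries most like a tested member and the 3 most abundant of the vessel list. The cluster members at 0 or low, and the entries named for antisense counts, were added after their values were seen. The members and lists were chosen with earlier results of these data known. Values without the low-count filter under other scalings or without a library, the test of the title ranges against each other, the correlations in CPM of library totals, and the comparisons with entries of like total, with complementary entries and by base composition were added after seeing the data.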

Additional observations from a re-analysis of the deposited data

How the results depend on the processing

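No paired analysis was made because the labels give no pairing of trained with sedentary rats. The count of entries past the threshold stayed at 0 in 16 of 17 other settings and without each of the 25 libraries (0 to 0), and was 66 without a low-count filter. MiR-126a-3p did not pass the threshold in any of these settings (adjusted p 0.893 to 0.999), and its log2 fold change was negative in 11 of 17. It was positive at 0.015 with limma-voom, 0.011 with 10 counts in at least 12 libraries, 0.0017 without the most abundant entry, 0.044 with near-identical entries counted once, 0.053 with title number as a covariate and 0.00078 at title numbers above 13. Without 1 library it ran from -0.17 (trained 14) to 0.13 (sedentary 30), positive in 7 of 25 cases. The cause of these sign changes was not tested. Without the filter, values without 1 library ran from -1.44 to 0.68 for miR-221-3p, and from -0.96 to 0.19 for miR-222-3p, which was at -2.31 with upper-quartile factors (adjusted p = 0.267). The difference in the miR-221-3p share was -8.65 percentage points with at least 1 count in the pair (24 libraries), -12.5 at title numbers 1 to 13 (exact permutation p = 0.800), 18.3 above 13 (p = 0.400) and -11.3 to 13.7 without 1 library (p 0.635 to 0.905). The 5p share of miR-126a was 0 throughout. The 3 correlations stayed short of the threshold in the 3 other settings and kept their sign in both planned ones. In CPM of library totals, added after seeing the data, rho of miR-126a-3p was 0.031 with miR-221-3p (permutation p = 0.885) and 0.0039 with miR-222-3p (p = 0.986), both with the sign reversed. Depth limits a library's level of 0 to 14.8 CPM at best.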
